A study of Mus musculus with 4 samples.

Results

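The endothelial cells described here are the cells of blood and lymphatic vessels that came through a sort for epithelial cells of the mouse mammary gland. They were 124 of 25950 cell barcodes kept in 4 single-cell RNA libraries. A barcode was kept with at least 1000 unique molecular identifiers (UMIs, 1 per captured RNA molecule), at least 500 genes and at most 15% mitochondrial UMIs. It was taken as endothelial when Pecam1, Cdh5, Cldn5, Plvap and Emcn together reached 5 UMIs per 10000 of the cell, with UMIs of at least 2 of these genes. The cell also had to stay under 10 per 10000 in each of 3 epithelial sums, which were Krt5 with Krt14, Esr1 with Prlr, Areg and Foxa1, and Wfdc18 with Csn3, Elf5 and Kit. These counts chose the cells, so the 5 genes and the genes that lead the cells over the rest are described without a test.

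The study asked how cells carrying the Y541S mutation of Esr1, the gene of estrogen receptor alpha, respond when that receptor is antagonised. Mice of 6 months of age, wild type (WT) or Y541S, all carried pellets of estradiol and progesterone. For 4 days they received either the carrier MCT (vehicle) or giredestrant at 30 mg/kg each day by mouth. Giredestrant binds the receptor, blocks it and promotes its degradation. EpCAM-positive cells of the mammary gland were then sorted and profiled with the 10x Genomics v3.1 chemistry, which counts the 3' ends of transcripts. The groups were therefore WT with hormones and vehicle, WT with hormones and giredestrant, Y541S with hormones and vehicle, and Y541S with hormones and giredestrant. Each group was 1 library, so no test between groups was possible. The number of mice behind a library and the zygosity of the mutation are not given in the sources used here, and no library came from mice without hormone pellets. All intervals below are 95% intervals for counting error only. They leave out the difference between animals and between sorts.

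Endothelial cells line every vessel and hold together through VE-cadherin (Cdh5), PECAM1 and claudin-5. Vascular endothelial growth factor (VEGF), angiopoietin, Notch and BMP signals keep them alive and set their identity as artery, capillary, vein or lymphatic. In the mammary gland a dense capillary bed lies in the fat pad around the ducts and hands fatty acids to adipocytes and milk-producing cells, and it grows and regresses with each reproductive cycle. ETS-family transcription factors, among them ERG and FLI1, bind many endothelial promoters and enhancers at sites with a GGAA core.

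The promoter windows of Emcn, a gene of the rule, and of the endothelial receptor genes Tie1 and Kdr are shown because each holds a hexamer with such a core. Each run is the 250 bases before the transcription start, from RefSeq (GRCm38.p6), written 5′ to 3′ on the strand of the gene. Capitals mark CAGGAA or CCGGAA or their reverse complements TTCCTG and TTCCGG.
Emcn, chr3:137340828-137341077, plus strand: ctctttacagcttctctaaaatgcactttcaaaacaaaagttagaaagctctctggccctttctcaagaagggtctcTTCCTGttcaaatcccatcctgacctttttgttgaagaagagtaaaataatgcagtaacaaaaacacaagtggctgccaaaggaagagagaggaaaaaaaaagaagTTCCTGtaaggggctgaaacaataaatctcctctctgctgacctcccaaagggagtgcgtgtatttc
Tie1, chr4:118489850-118490099, minus strand: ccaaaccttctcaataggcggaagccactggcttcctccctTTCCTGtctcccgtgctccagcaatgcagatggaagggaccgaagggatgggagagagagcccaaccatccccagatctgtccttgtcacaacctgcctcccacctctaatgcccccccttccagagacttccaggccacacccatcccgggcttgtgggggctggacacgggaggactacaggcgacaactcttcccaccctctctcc
Kdr, chr5:75978456-75978705, minus strand: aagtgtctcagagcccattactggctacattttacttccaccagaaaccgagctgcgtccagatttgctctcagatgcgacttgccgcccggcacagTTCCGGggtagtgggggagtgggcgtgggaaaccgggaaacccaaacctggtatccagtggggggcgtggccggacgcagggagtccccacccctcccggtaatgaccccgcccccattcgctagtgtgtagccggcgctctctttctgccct
Emcn encodes the surface sialomucin endomucin, Tie1 an orphan receptor of the angiopoietin system and Kdr the main signalling receptor of VEGF. Of the 27 endothelial marker genes, 14 had a window in the table, some of them several, which gave 18 windows. CAGGAA on either strand stood in 55.6% of those 18 windows and in 25.7% of all 32851 windows of the same length. CCGGAA stood in 11.1% and 12% of them. The window of Cldn5 held neither hexamer. A match of 6 letters is a description of the sequence and not a binding site. The cells did hold RNA of the factors themselves. Erg had 279 UMIs in 85 of the 124 cells, Fli1 666 UMIs in 104 cells and Ets1 398 UMIs in 87 cells.

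The WT vehicle library gave 50 endothelial cells of 7082, or 0.706% (0.524 to 0.93). The WT giredestrant library gave 25 of 3029, or 0.825% (0.535 to 1.22). In the Y541S vehicle library there were 16 of 7217, or 0.222% (0.127 to 0.36), and in the Y541S giredestrant library 33 of 8622, or 0.383% (0.264 to 0.537). Both WT shares lay above the Y541S vehicle share by more than their counting intervals. The sort for EpCAM sets how many vessel cells reach a library, so these shares say nothing of how many vessels the gland had.

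Depth differed among the libraries. The median kept cell had 10868 UMIs with WT vehicle, 21927 with WT giredestrant, 15290 with Y541S vehicle and 6267.5 with Y541S giredestrant (98223195, 84215237, 132660456 and 70781982 UMIs in all). The endothelial cells were more alike, with median UMIs of 5826.5, 5197, 4436 and 4440 in that order. They summed to 312256, 231367, 168408 and 191367 UMIs. A few deep cells weighed heavily in some sums: the 2 deepest held 53.3% of the endothelial UMIs of the Y541S vehicle library, against 11.2% with WT vehicle, 29.4% with WT giredestrant and 26% with Y541S giredestrant. Median mitochondrial shares were 1.6%, 1.76%, 1.48% and 2.99%. No endothelial cell shared its barcode with an endothelial cell of another library, while 1 of the 124 barcodes also occurred elsewhere and 81 kept barcodes of the series occurred in at least 2 libraries.

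**Figure D1:**
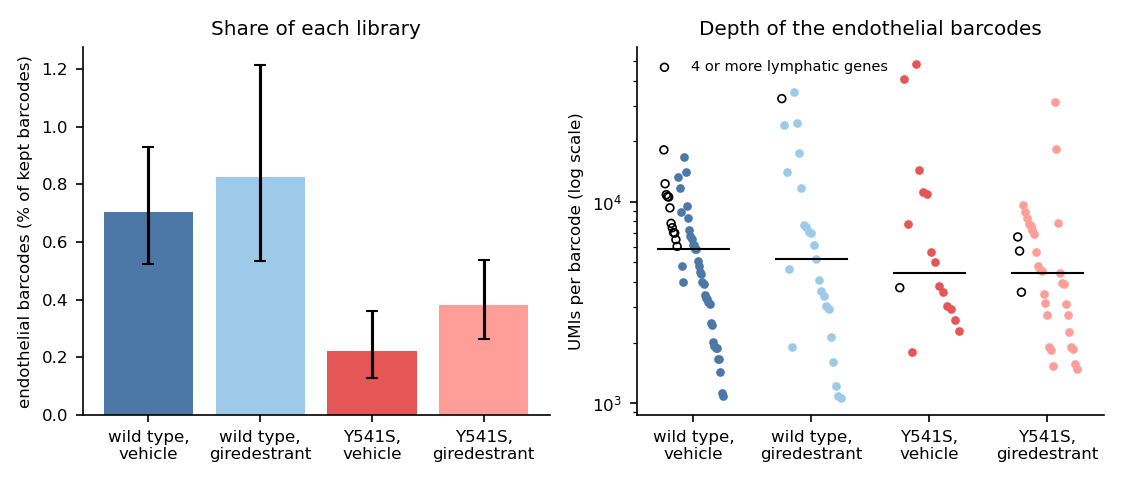
Share of kept barcodes that met the endothelial rule in each library (bars, percent, with exact 95% binomial intervals) and UMIs of each of these barcodes on a log scale (dots, line at the median, open circles for barcodes with 4 or more lymphatic genes). The WT shares of 0.706% and 0.825% stand above the Y541S shares of 0.222% and 0.383%, and the deepest cell, with 48671 UMIs, is in the Y541S vehicle library.

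Most cells passed the rule by a wide margin. Of the 124, 67 held UMIs of 4 of the 5 genes, 13 of all 5, 29 of 3 and 15 of 2. The cells nearest the threshold inside it had sums of 5.62, 7.04, 8.29, 8.32 and 11.1 per 10000, and those nearest outside it had 4.73, 4.7, 3.88, 3.27 and 1.91. Only 7 cells that met the other conditions fell below the threshold.

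Levels below are in CPM, the UMIs of a gene summed over the endothelial cells of a library and scaled to 1000000 UMIs of those cells. Since 3' ends are counted, 1 UMI stands for 1 molecule whatever the length of the gene. Pecam1, the adhesion molecule CD31 (chr11:106654217-106750628, GRCm38), stood at 1127 CPM with WT vehicle, 1327 with WT giredestrant, 1134 with Y541S vehicle and 1348 with Y541S giredestrant. Cdh5 (chr8:104101625-104144511) stood at 916, 1223, 962 and 988 in the same order, which is the order used for every set of 4 values below. The levels of both genes stayed close across the libraries. Plvap, which forms the diaphragms of fenestrae, stood at 839, 639.7, 599.7 and 428. Emcn was lowest with WT vehicle, at 285 against 622, 540.4 and 726. Cldn5, the tight-junction claudin of endothelium, stood at 1275, 709, 1253 and 434. A single cell held 17.3% of all Cldn5 UMIs, and only 79 of the 124 cells held any.

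Genes outside the rule gave the same identity. All 124 cells held UMIs of at least 3 of 22 further pan-endothelial genes, with a median of 14. Genes were ranked by their level in these cells over the level in all other kept cells, among 1806 genes with 100 or more UMIs. The scavenger receptor gene Marco led, with 783 CPM in the endothelial cells, but it came from 9 cells. Selp, the P-selectin that tethers leukocytes, followed with 1442 CPM from 30 cells. Behind these narrow genes came broad ones. Cyyr1 (1476 CPM in 105 cells) and the phosphatase gene Ptprb (750.5 in 103 cells) were among them. The capillary genes Gpihbp1, Car4, Cd300lg, Btnl9 and Aqp1, the receptor genes Tie1, Adgrl4 and Kdr, and Fabp4 were also among the leading 20. Fabp4, a fatty-acid carrier of adipocytes and capillary endothelium, was the most abundant of the 20, with 14824 CPM in 113 cells against 10.6 in the other kept cells.

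The labels name the sorted cells mammary epithelial cells and, as source, mature luminal cells, and the vessel cells do not carry that identity. Epcam, the antigen of the sort, had UMIs in 9 of the 124 cells, or 7.26% (3.37 to 13.3). Epithelial cells were taken as those outside the endothelial rule that reached 10 per 10000 in any of the 3 epithelial sums. Epcam had UMIs in 95.7% of these 23672 cells, and in 13.2% of 197 fibroblast-type cells chosen by collagen and other fibroblast genes. Both rules used epithelial genes, so the contrast of endothelial and epithelial cells was in part set by the choice of cells. With every cell thinned to 1000 UMIs the shares were 0.806%, 61.7% and 3.55%. The intervals of the endothelial and the fibroblast-type share (8.81 to 18.7) overlap, and fibroblasts should lack the gene. By library Epcam had UMIs in 3 of 50, 0 of 25, 1 of 16 and 5 of 33 endothelial cells. The epithelial junction genes Cldn3 and Cldn7 had 1 UMI each, Cldn4 had 6 and E-cadherin (Cdh1) had 8, against levels of 346, 322, 383 and 551 CPM in the epithelial cells. The endothelial cells held other junction genes instead. T-cadherin (Cdh13) had 761 UMIs, Jam2 had 304, F11r had 282 and Tjp1 had 243. In the opposite direction, Cdh5 had UMIs in 0.161% of the epithelial cells and in none of the 197 fibroblast-type cells.

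**Figure D2:**
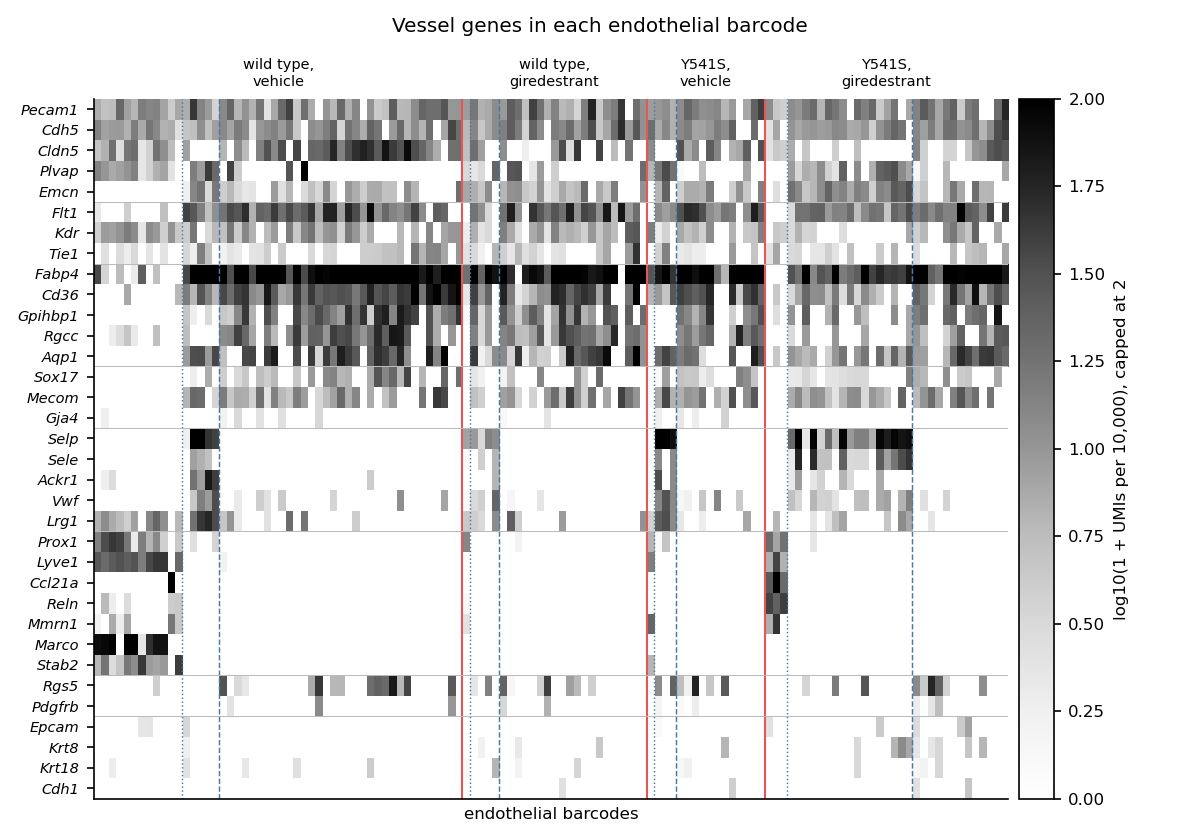
Level of 34 genes (rows) in each of the 124 endothelial cells (columns), as log10 of 1 plus UMIs per 10000 of the cell, with the colour scale ending at 2. Red lines separate the libraries, and within a library the cells with 4 or more lymphatic genes stand left of the dotted line and those with Selp between the dotted and the dashed line. Capillary genes fill most columns, while lymphatic genes fill a block that is widest in the WT vehicle library.

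Capillary genes were found in most of the cells. Of 14 capillary genes, 117 cells held UMIs of at least 3, and 92 after thinning to 1000 UMIs. These counts include lymphatic and Selp-positive cells, so they do not separate vessel types. Fabp4 (chr3:10204088-10208576) stood at 13482, 17928, 17113 and 11245 CPM. Cd36, the fatty-acid translocase, stood at 1857, 2282, 2464 and 1244, with UMIs in 102 cells. Gpihbp1, which anchors lipoprotein lipase on the capillary wall, stood at 890.3, 1314, 938 and 909. For these lipid genes the Y541S giredestrant library was lowest for Fabp4 and Cd36 but not for Gpihbp1. The water channel gene Aqp1 stood at 1329, 1517, 1538 and 899. Rgcc, a cell-cycle regulator typical of capillaries, had UMIs in 33 of 50, 22 of 25, 10 of 16 and 14 of 33 cells. The nuclear receptor gene Pparg and the transcription factor genes Meox2 and Tcf15, which act on fatty-acid uptake in endothelium, were present with 169, 124 and 116 UMIs. Of the 79 cells with Gpihbp1, 67 also held Rgcc.

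Arterial genes were thin. UMIs of at least 2 of 14 arterial genes were found in 93 cells, yet in 40 after thinning to 1000 UMIs. The count rested on genes that other vessels share, such as Mecom (81 cells) and Sox17 (58 cells). The arterial gap-junction gene Gja4 had 20 UMIs in 12 cells, which were 6, 2, 4 and 0 by library. Its absence with Y541S giredestrant allows up to 3 UMIs in 191367. Sema3g, an arterial semaphorin, also had UMIs in 12 cells. Of 13 sprouting genes, 107 cells held at least 2, and 46 after thinning. The collagen genes Col4a1 (782 UMIs) and Col4a2 (501) led this list, followed by Trp53i11 (135) and Plxnd1 (110). Angpt2 had 30 UMIs in 21 cells, Esm1 25 in 5 cells, Apln 2 and Cxcr4 none.

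A clear minority was lymphatic. Of 7 lymphatic genes, 79 of the 124 cells held none, 27 held 1 and 1 held 2. No cell held 3, while 17 held 4 to 7. The gap between 2 and 4 genes separated 17 lymphatic cells, a subset set after the values were seen. They were 12 of 50 cells with WT vehicle, or 24% (13.1 to 38.2). They were 1 of 25 with WT giredestrant, or 4% (0.101 to 20.4), 1 of 16 with Y541S vehicle, or 6.25% (0.158 to 30.2), and 3 of 33 with Y541S giredestrant, or 9.09% (1.92 to 24.3). The WT vehicle interval overlaps each of the other 3. The lymphatic cells were deeper than the rest, with a median of 7446 against 4440 UMIs.

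**Figure D3:**
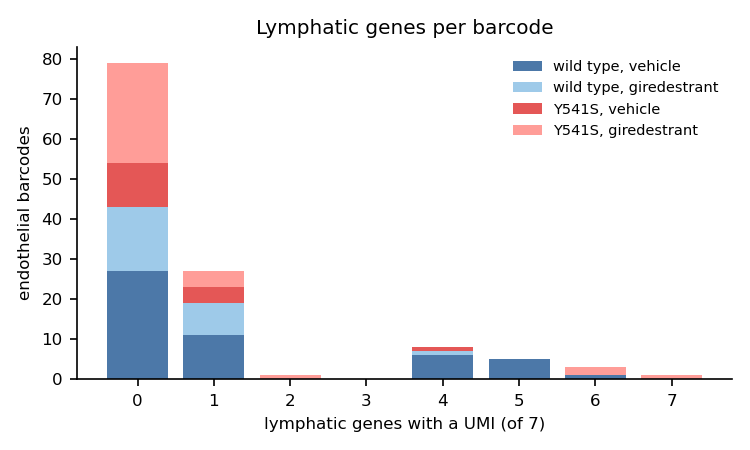
Number of endothelial cells (vertical axis) by how many of 7 lymphatic genes had UMIs in the cell (horizontal axis), stacked by library. No cell holds exactly 3 genes, and 12 of the 17 cells with 4 or more are from the WT vehicle library.

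Prox1, the transcription factor that sets lymphatic identity (chr1:190118035-190170714), had 259 UMIs in 16 of the 17 lymphatic cells and 9 UMIs in 6 of the other 107. Lyve1, the hyaluronan receptor of initial lymphatics (chr7:110850607-110863239), had 330 UMIs in 15 of the 17 and 1 UMI elsewhere. Emcn, a gene of the rule that marks capillaries and veins, was at 0 in 15 of the 17. Podoplanin (Pdpn) had 94 UMIs in 12 of the 17 cells and 1 UMI elsewhere. Genes outside the list also separated them. Sema3d had 204 UMIs in 16 of the 17 and none elsewhere, and Sema3a had 216 UMIs in 12 and 1 elsewhere. Both are secreted guidance factors. Stab2, a scavenger receptor for hyaluronan, had 138 UMIs in 12 cells and none elsewhere.

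The lymphatic cells themselves were of more than 1 kind. With WT vehicle, 11 of the 12 carried Lyve1 without Ccl21a, at 11 to 49 UMIs of Lyve1 a cell. In 9 of these the macrophage scavenger receptor gene Marco (chr1:120474538-120505024) had UMIs, 707 in all, from 1 to 142 a cell. Marco had no UMI in any endothelial cell of the other 3 libraries. The remaining WT vehicle cell, with 6494 UMIs, held 63 UMIs of Ccl21a, the chemokine that draws dendritic cells into lymphatics, and none of Prox1 or Lyve1. All 3 lymphatic cells with Y541S giredestrant held Ccl21a, at 73, 18 and 7 UMIs, and Reln, at 13, 25 and 14 UMIs. None of the 3 held Marco. The lymphatic cell with WT giredestrant had 32641 UMIs, with 39 of Prox1 but none of Lyve1, and it also held 24 UMIs of Selp and 22 of Emcn. That cell carried genes of lymphatic and of blood vessels together, and it was among those with the highest doublet scores.

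Venous genes marked another minority. Selp (chr1:164115264-164150026) had UMIs in 5 of 50 cells with WT vehicle, or 10% (3.33 to 21.8), and in 5 of 25 with WT giredestrant, or 20% (6.83 to 40.7). It had UMIs in 3 of 16 cells with Y541S vehicle, or 18.8% (4.05 to 45.6), and in 17 of 33 with Y541S giredestrant, or 51.5% (33.5 to 69.2). The Y541S giredestrant share lay above the WT vehicle share by more than the counting intervals. After thinning to 1000 UMIs the cells with Selp were 4, 4, 3 and 13. Summed levels had another order, 954, 238, 3224 and 2127 CPM, and 1 cell held 33.5% of all Selp UMIs. E-selectin (Sele, chr1:164048234-164057677), which inflamed venules show, had UMIs in 3, 3, 2 and 14 cells. Both selectins were therefore found in more of the Y541S giredestrant cells than of any other library.

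The cells without the lymphatic subset were set apart by Selp, again after the values were seen, into 29 with and 78 without it. Sele had UMIs in 21 of the 29 and in none of the 78. Ackr1, the chemokine receptor of venules, had UMIs in 14 of the 29 and 1 of the 78. The metalloprotease gene Tll1 followed the same line with 18 and 1, and Mctp1 with 18 and 4. Vwf, the von Willebrand factor of platelet adhesion, stood at 639 CPM with Selp and 59 without it. The vascular adhesion gene Vcam1 had UMIs in 13 of the 29 cells and 3 of the 78. Capillary genes went the other way. Rgcc stood at 276 CPM with Selp and 1368 without, Gpihbp1 at 529 and 1555, Cd300lg at 74.4 and 527, Timp4 at 48.1 and 387. Cldn5 stood at 337 with Selp and 1301 without. Fabp4 was present on both sides, at 11789.6 and 20708. Cells with Selp were somewhat deeper, at a median of 5656 against 3899.5 UMIs. Without the lymphatic cells the 4 libraries held 5, 4, 3 and 17 cells with Selp and 33, 20, 12 and 13 without, so the makeup of the Y541S giredestrant sum differs from that of the others. The contrasts of cells with and without Selp pool the libraries, so they cannot be told apart from differences between libraries. Mctp1 and Tll1 were themselves named for their difference between Y541S and WT under giredestrant.

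Receptors of VEGF were widespread. Flt1, the decoy receptor VEGFR1, stood at 1694, 2062, 2440.5 and 1521 CPM, and Kdr (VEGFR2) at 689, 566, 422 and 277. Kdr was highest with WT vehicle and lowest with Y541S giredestrant. The coreceptor genes Nrp1 and Nrp2 had UMIs in 91 and 78 cells. The lymphatic receptor gene Flt4 (VEGFR3) had UMIs in 37. The ligands were nearly absent, with 14 UMIs of Vegfa, 16 of Vegfb, 13 of Vegfc, 4 of Vegfd and 3 of Pgf in all 124 cells. Vegfa stood at 125 CPM in the epithelial cells.

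Of the angiopoietin system, the receptors Tie1 and Tek stood at 188 and 191 CPM over all 124 cells, and Ptprb, the phosphatase that restrains Tek, at 750.5. Angpt2 had 30 UMIs and Angpt4 none. Notch1 stood at 190.4 and its target Hes1 at 375, while the ligand gene Dll4 had UMIs in 29 cells and the arterial effector Hey2 in none. Of BMP signalling, Bmpr2 stood at 598, the coreceptor endoglin (Eng) at 698 and the receptor Acvrl1 at 87.4. The target Id1 stood at 1327 against 33.6 in the epithelial cells. Flow-responsive Klf2 and Klf4 stood at 860.1 and 928.

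Steroid receptors could be judged only in part, because Esr1 was among the genes the rule limited. Esr1 had 14 UMIs in 5 cells, 13 of them with WT vehicle. Esr2 had no UMI in any endothelial cell, Gper1 had 1 and Pgr 4. No UMI of Greb1, a classical target of estrogen receptor alpha, was found, against 43.6 CPM in the epithelial cells. A count of 0 allows up to 3 UMIs. The glucocorticoid receptor gene Nr3c1 was the most widespread, with 222 UMIs in 75 cells, at 234, 277, 226 and 246 CPM. The mineralocorticoid receptor gene Nr3c2 had 121 UMIs. Nr2f2, the COUP factor of veins and lymphatics, had 237.

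Markers of most other cell types were rare in these cells, while those of mural cells and, in a few cells, red cells were not. Lymphocyte markers had no UMI for any of 8 genes. Myeloid markers had 4 UMIs over 7 genes, with Csf1r, C1qa and Adgre1 at 0. Adipocyte markers had 12 UMIs over 6 genes, with Adipoq and Lep at 0, although Fabp4 was so abundant. Milk genes had 16 UMIs over 6 genes. At least 3 of 6 fibroblast markers were held by 4 cells, 1, 0, 2 and 1 by library, and Lum was at 0. Mural markers, of the pericytes that wrap capillaries, were held at 3 or more of 8 by 14 cells, which were 4, 2, 5 and 3 by library, with summed levels of 592, 834, 1158 and 789 CPM. In those 14 cells Rgs5 stood at 1775 CPM against 163 in the other 110, and Pdgfrb at 131 against 0, while Pecam1 stood at 1077 against 1277. Their median depth was 9521.5 UMIs against 4712, so they held pericyte and endothelial RNA together at high depth. Red cell and platelet markers reached 4149 UMIs, at 12355 CPM with WT vehicle, 21.6 with WT giredestrant, 1692 with Y541S vehicle and 5.23 with Y541S giredestrant. At least 3 of these 7 markers were held by 3 cells, of which 2 were with WT vehicle and 1 with Y541S vehicle.

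For each pair of libraries the summed UMIs of the endothelial cells were compared gene by gene, for genes with 20 or more UMIs over both. A gene was called when its ratio lay 2-fold or more from the ratio of the median gene, and every fold below is given relative to that median gene. With 1 library a group a call is a size and not a test. Each library enters 2 of the 4 comparisons, so comparisons that share a library are not independent of each other. In summed counts, fewer cells of a vessel type and less RNA per cell cannot be told apart.

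Giredestrant against vehicle in WT asks what blocking the receptor did to the vessel cells of normal glands. The lymphatic genes were lower with giredestrant, as were most venous and some arterial genes, and the capillary genes were close to the median gene. Of all 4553 genes tested, 343 (7.53%) were called higher and 545 (12%) lower. With each cell weighted alike, 562 were called higher. All 6 lymphatic genes tested were lower, with a median of -3.03 on the log2 scale. The lymphatic cells themselves were 12 with vehicle and 1 with giredestrant. Lyve1 went from 299 UMIs in 12 cells to 0, at least 75.3-fold lower, and Marco from 707 to 0, at least 178-fold lower. Red cell genes were also lower, all 4 tested, with Hbb-bs at least 571-fold and Hba-a2 at least 126-fold lower. In WT vehicle 2 cells held at least 3 red cell or platelet markers. Fgf14, at least 106-fold lower, had UMIs in 7 of the 17 lymphatic cells and in no other endothelial cell. Thsd4 was 144-fold lower (25.5 to 5699), with UMIs in 16 of the 17 lymphatic cells over all libraries. The leptin receptor gene Lepr was 131-fold lower (23.2 to 5192) and the matrix gene Tnc 94.8-fold lower (36.8 to 349). Over all genes, 545 of 4553 were called lower with the lymphatic cells and 309 of 3548 without them.

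Of 10 venous genes, 6 were lower in that comparison and 1 higher, with a median of -1.02. Ackr1 stood at 256 CPM in vehicle cells and 4.32, a single UMI, in giredestrant cells, which is 60.4-fold lower with an interval of 10.5 to 2417. Selp was 4.09-fold lower (3.06 to 5.56), although it was held by 5 cells in each library. Nr2f2 was lower, from 349 to 151 CPM, but stood 0.3 above the median gene on the log2 scale without the lymphatic cells. Sele, at 16 and 6 UMIs, had an interval that held the median gene. Aplnr, the apelin receptor of veins and capillaries, was 5.4-fold higher (2.83 to 11.2), at 38.4 and 212 CPM, with UMIs in 8 of 50 and 11 of 25 cells. With giredestrant 1 cell held 28 of the 49 UMIs of Aplnr. Without the lymphatic cells 4 of 8 venous genes were lower, which were Ackr1, Vwf, Sele and Selp. The arterial genes were lower to a like degree. Of 8 tested, Unc5b, Stmn2, Fbln5 and Jag1 were lower and none was higher, with a median of -0.94. Without the lymphatic cells 4 of 7 were lower, which were Sox17, Stmn2, Fbln5 and Jag1, with a median of -1.11.

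Of 14 capillary genes, only Btnl9 was called, 10.4-fold higher (5.2 to 23.8) at 28.8 and 307 CPM. Of the UMIs of Btnl9 in all libraries, 39.8% came from 1 cell. The capillary median was 0.33. Cxcl10, a chemokine that interferon induces, was 6.35-fold higher (3.89 to 10.9), with UMIs in 4 of 50 and 10 of 25 cells. None of 13 interferon genes was called in that comparison, with a median of -0.16. The guanylate-binding gene Gbp8 was 5.79-fold higher. Among pan-endothelial genes Cd34 was higher, from 106 to 359 CPM, and S1pr1 and Vwf lower, while the other 19 of 22 were not called. S1pr1, the receptor through which sphingosine-1-phosphate tightens junctions, stood at 765 and 350.1 CPM, 2.23-fold lower (1.73 to 2.91).

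Genes that steroids induce were lower or not called. Of 8 tested, Tsc22d3, Fkbp5 and Txnip were lower, with a median of -0.38 over the 8. Fkbp5, a chaperone partner of steroid receptors, stood at 179 and 34.6 CPM, 5.29-fold lower (2.51 to 12.8). Tsc22d3, a glucocorticoid-induced zipper protein gene, stood at 115 and 30.3, 3.89-fold lower (1.71 to 10.3). Both were lower in the cells left without the lymphatic ones as well. Basement-membrane genes had a median of 0.54 with Lamb1 and Hspg2 higher, of 12 tested. Of 12 immediate early and heat-shock genes, Egr1 was called higher and Dusp1 and Hspa1b lower, with a median of -0.03. Egr1 was 2.48-fold higher (2.19 to 2.81), at 1265 and 3198 CPM. It was 0.94 above the median gene on the log2 scale, just short of a call, without the lymphatic cells.

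**Figure D4:**
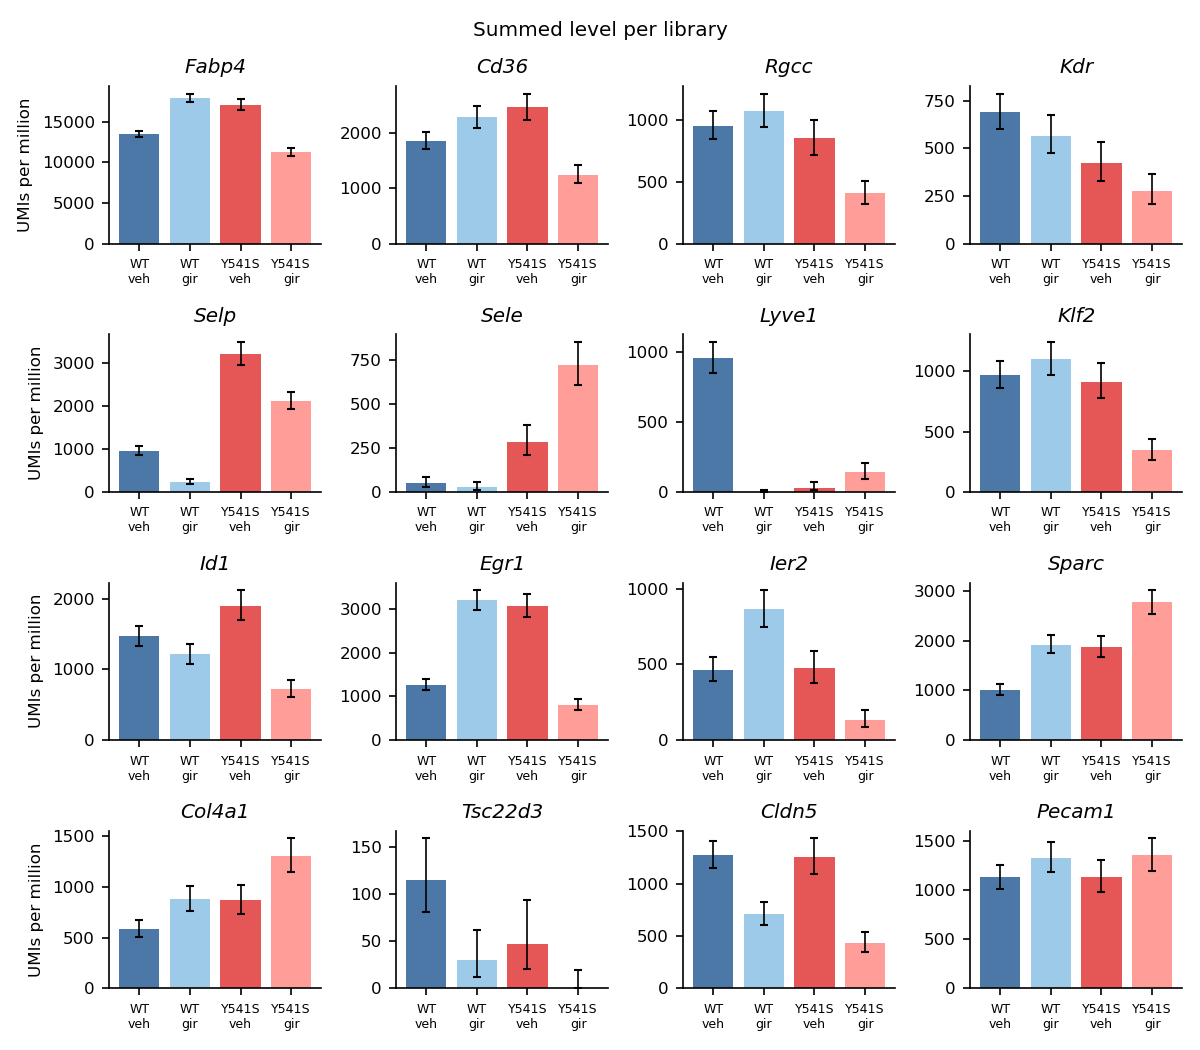
Summed CPM of the endothelial cells of each library for 16 genes, with exact 95% Poisson intervals for counting error. Lyve1 stands highest with WT vehicle, and Egr1 is lower with Y541S giredestrant, at 799.5, than with WT giredestrant, at 3198.

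Giredestrant against vehicle in Y541S asks the same of mutant glands, from 16 vehicle and 33 giredestrant cells. The immediate early genes Egr1, Fos, Junb, Ier2 and Ier3 and flow-responsive Klf2 and Thbd were lower with giredestrant. So were the BMP targets Id1 and Id3 and some interferon genes. The 5 lymphatic genes tested were higher. Of all 3456 genes tested, 9.98% were called higher and 9.11% lower. Of 12 immediate early and heat-shock genes, 5 were lower and none higher, with a median of -0.92. Egr1 stood at 3069.9 and 799.5 CPM, 3.8-fold lower (3.17 to 4.58). Fos stood at 2583 and 768, 3.33-fold lower (2.76 to 4.04), and Ier2 at 475 and 136, 3.46-fold lower (2.2 to 5.62). The Y541S giredestrant cells were the lowest of the 4 libraries for these 3 genes. Their median mitochondrial share of 2.99% was also the highest, and its part in these differences was not tested. Cells with Selp were 3 of 16 with vehicle and 17 of 33 with giredestrant. Outside the lymphatic subset and over all libraries, Egr1 stood at 1067 CPM with Selp and 2891 without, and Ier2 at 210 and 710. Klf2 stood at 407 and 1095 and Id1 at 516 and 2099, while Ier3 went the other way, at 674 and 554. The part of this makeup in the differences was not tested either.

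Klf2, which laminar flow induces, had UMIs in 41 of 50, 21 of 25, 12 of 16 and 14 of 33 cells by library, at 967, 1102, 914 and 345 CPM. It was 2.62-fold lower (1.96 to 3.56) with giredestrant in Y541S. Thbd, the thrombomodulin that restrains clotting, stood at 528, 203, 315 and 115. It was lower with giredestrant in both genotypes, 2.65-fold in WT and 2.71-fold in Y541S, the latter not called without the cells that held mural markers. Id1 stood at 1470.0, 1215, 1906 and 721, and was 2.62-fold lower (2.14 to 3.22) in Y541S. Of 13 interferon genes, Ifit2, Ly6a, Ly6c1 and Rsad2 were lower in Y541S and none was higher, with a median of -0.76. Ly6a and Ly6c1 lay close to the threshold, at 2.05-fold and 2.02-fold, and lost the call under 5 alternatives each. Of 7 genes tested that steroids induce, Cdkn1c and Zbtb16 were lower with giredestrant in Y541S and none was higher, with a median of -0.83. Both also stood lower in cells with Selp than without it, and the part of that makeup was not tested.

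Capillary genes had a median of -0.63 over 14 in Y541S, and only Rgcc was called, at 855 and 408 CPM. That call was lost without the lymphatic cells, where none of the 14 was called. Of the lipid genes, Lpl, the lipase held on the capillary wall, was lower, at 238 and 88.8. Of 11 basement-membrane genes, Col15a1, Lamc1 and Lama5 were higher and Nid1 and Lamb2 lower, with a median of 0.66. Col15a1 stood at 73.7, 143, 131 and 324 CPM. Sparc, a matrix-binding protein, stood at 1012, 1919, 1870.5 and 2775, and Col4a1 at 583, 882, 867 and 1306, each highest with Y541S giredestrant without reaching 2-fold from vehicle.

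The venous genes went both ways in Y541S. Sele was 2.56-fold higher (1.83 to 3.63) with giredestrant, at 285 and 721 CPM. In the vehicle library 1 cell held 46 of its 48 UMIs. Under the alternatives the log2 ratio of Sele ran from 0.81, short of a call, to 4.59. Ackr1 was 8.8-fold lower (5.29 to 15.6), from 133 UMIs in 2 cells to 17 UMIs in 7 cells. Lrg1, an angiogenic glycoprotein of venules, was 9.33-fold lower (5.62 to 16.5), at 837 and 88.8. Vwf was 3.3-fold lower (2.16 to 5.18), from 523 to 157. The vehicle sum rests on few cells, and 1 of them held 56.7% of all Ackr1 UMIs. All 5 lymphatic genes tested were higher, with a median of 2.26, on 1 and 3 lymphatic cells. Cldn5 was 2.86-fold lower, but -0.31 on the log2 scale without the cells rich in red cell RNA. Of genes outside the lists, Gas7 was 25.8-fold higher, with UMIs in 1 of 16 and 14 of 33 cells, and the chemokine gene Cxcl1 was 12.9-fold lower (7.49 to 24.2). Neo1, a netrin receptor gene, was 24.9-fold higher, but 57.4% of its UMIs in all libraries came from 1 cell. The mitochondrial gene mt-Atp8 was 9.96-fold higher. The median mitochondrial share was also higher, but none of the 6 listed mitochondrial genes tested was called, with a median of 0.59. Sulf1, a heparan sulfatase gene, was 49.5-fold lower, the chaperone gene Clu 18.9-fold lower and the orphan receptor gene Nr4a3 10.97-fold lower. Markers of other cells were lower in the same comparison. The fibroblast collagen gene Col3a1 stood at -2.82 on the log2 scale, the mural gene Abcc9 was called lower, and the red cell genes Hba-a1, Hba-a2 and Hbb-bs had a median of -4.17. The calls for Egr1, Fos, Ier2, Id1, Klf2 and Lrg1 held in every alternative that gave a value, those without such cells included.

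Y541S against WT in vehicle asks what the mutation alone did under hormones. The venous genes Ackr1, Vwf, Sele and Selp were higher in Y541S and the lymphatic genes lower, while capillary, pan-endothelial and immediate early genes were mostly not called. Of all 4188 genes tested, 7.9% were called higher and 10.7% lower. Of 10 venous genes, Ackr1, Vwf, Sele and Selp were higher and Vcam1 lower, with a median of 0.81. The Y541S vehicle sums rest on few cells. In that library 1 cell held 131 of 133 UMIs of Ackr1, 1 held 46 of 48 of Sele and 1 held 436 of 543 of Selp. Vwf had UMIs in 8 of the 16 cells, with 49 in 1 of them. Selp was 3.36-fold higher (2.92 to 3.89), yet 0.52 and 0.29 on the log2 scale, with no call, without the cells holding 3 mural markers or those holding fibroblast, myeloid or lymphocyte markers. Ackr1 turned from 1.62 higher to -2.54 and -2.76 in the same alternatives. Vwf, at 138 and 523 CPM, was 3.78-fold higher (2.6 to 5.58). It kept its call in every alternative that gave a value, between 1.25 and 2.38 on the log2 scale. Removing the highest doublet scores gave none here, as it left 4 of 16 Y541S vehicle cells, 0 of them with Selp. Of the 6 lymphatic genes tested 5 were lower, with a median of -3.8, on 12 lymphatic cells against 1.

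On the higher side the calcium channel gene Cacna1c was 11.4-fold higher (5.99 to 23.9) and the Notch coactivator gene Maml3 7.54-fold (3.95 to 15.6). The cytokine and chemokine genes Il6, Cxcl1 and Cxcl10 were also higher. Il6 was 7.91-fold higher (5.84 to 10.9), at 169.7 and 1348 CPM, Cxcl1 7.08-fold (5.01 to 10.2) and Cxcl10 7.02-fold (4.24 to 12.1). A single cell held 51.4% of all Il6 UMIs and a single cell 54.2% of all Cxcl1 UMIs. Without the cells holding mural markers Il6 stood at -0.12 and Cxcl10 at -0.54. Cxcl1 kept its call in every alternative that gave a value, which removing the highest doublet scores did not. Fibroblast-type cells of the same libraries held Il6 at 308, Cxcl1 at 596 and Cxcl10 at 268 CPM. The fibroblast marker Col3a1 (41.6 and 261 CPM) and the mural marker Rgs5 (404 and 855) were called higher in the same comparison, and 4 of 4 red cell genes lower. Of 22 pan-endothelial genes Cd34 and Vwf were higher and S1pr1 lower. Of 13 capillary genes only Timp4 was called, 2.39-fold lower (1.49 to 3.99). On the lower side stood genes of the lymphatic cells, with Marco at least 128-fold lower, Pcdh15 118-fold and Stab2 36.8-fold. Egr1 was 2.42-fold higher (2.12 to 2.76), and 0.75 on the log2 scale without the lymphatic cells.

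Y541S against WT under giredestrant compares 33 with 25 cells. The venous genes Selp, Sele and Vwf were higher in Y541S. Flow-responsive Klf2 and 4 genes each of the capillary, immediate early and interferon lists were lower. Of all 3905 genes tested, 11% were called higher and 9.17% lower. Of 8 venous genes Vwf, Sele and Selp were higher and Lrg1 lower, with a median of 0.78. Sele stood at 25.9 and 721 CPM, 28.1-fold higher (12.6 to 77.9). Selp stood at 238 and 2127, 9.04-fold higher (6.81 to 12.2), and remained between 2.83 and 3.89 on the log2 scale in every alternative run. Mctp1 went from 0 UMIs to 165 in 14 cells, at least 67.2-fold higher. Tll1 was 24.9-fold higher (10.3 to 78.4), and Il1r1, an interleukin receptor gene, 21.02-fold (8.67 to 66.4) with UMIs in 4 of 25 and 18 of 33 cells. In the pooled libraries Sele, Mctp1 and Tll1 were found mostly in cells with Selp, and cells with Selp were 5 of 25 and 17 of 33. Madcam1, the addressin of mucosal venules, was 11-fold higher (2.63 to 97.8) from 2 and 18 UMIs.

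Of 14 capillary genes in that comparison, Btnl9, Rgcc, Timp4 and Cd300lg were lower and none was higher, with a median of -0.74. Rgcc was 2.61-fold lower (2.02 to 3.41) and Timp4, an inhibitor of matrix proteases, 3.84-fold lower (2.21 to 7.05). Cd300lg, the nepmucin of capillaries, stood at 479.8 and 199 CPM, 2.39-fold lower (1.64 to 3.55), a call lost under 3 alternatives. Gpihbp1, Fabp4 and Cd36 were not called, at 1.43-fold, 1.58-fold and 1.82-fold lower. Lpl was 3.95-fold lower (2.32 to 7.1). Kdr was 2.02-fold lower (1.46 to 2.84) and lost its call under 7 alternatives. Of 17 endothelial transcription factor genes 14 were tested and Klf2, Lmo2 and Tal1 were lower. Klf2 was 3.16-fold lower (2.4 to 4.21). Btnl9, Rgcc, Timp4, Cd300lg and Klf2 also stood lower in cells with Selp than without it, and the part of that makeup here was not tested.

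Under giredestrant 4 of 12 immediate early and heat-shock genes were lower in Y541S, which were Egr1, Fos, Junb and Ier2, with a median of -0.6. Egr1 was 3.96-fold lower (3.32 to 4.74) and Ier2 6.29-fold lower (4.17 to 9.87). These 4 genes also stood lower in cells with Selp than without it, and the part of that makeup was not tested. Of 13 interferon genes, Ifit2, Ly6c1, Rsad2 and Ifi27 were lower. Of 7 genes tested that steroids induce, Cdkn1c and Zbtb16 were lower and Fkbp5 higher, with a median of -0.53. Zbtb16 was 5.73-fold lower (2.0 to 22.5), with UMIs in 11 of 25 and 4 of 33 cells. Fkbp5 was 2.6-fold higher (1.06 to 6.95). Tsc22d3 and Per1 had no UMI with Y541S giredestrant. Lymphatic genes were higher, 4 of 6, with a median of 3.17, on 1 and 3 lymphatic cells. Acta2, an actin of smooth muscle and of basal epithelium, went from 1 UMI to 54 UMIs in 8 cells, a ratio of 66 with an interval of 11.4 to 2654. Acta2 stood at 2732 CPM in the epithelial cells. Over all libraries it stood at 597.5 CPM in the 14 endothelial cells with at least 3 mural markers, from 7 of them, and at 26.7 in the others. The part of those cells in the ratio was not tested.

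**Figure D5:**
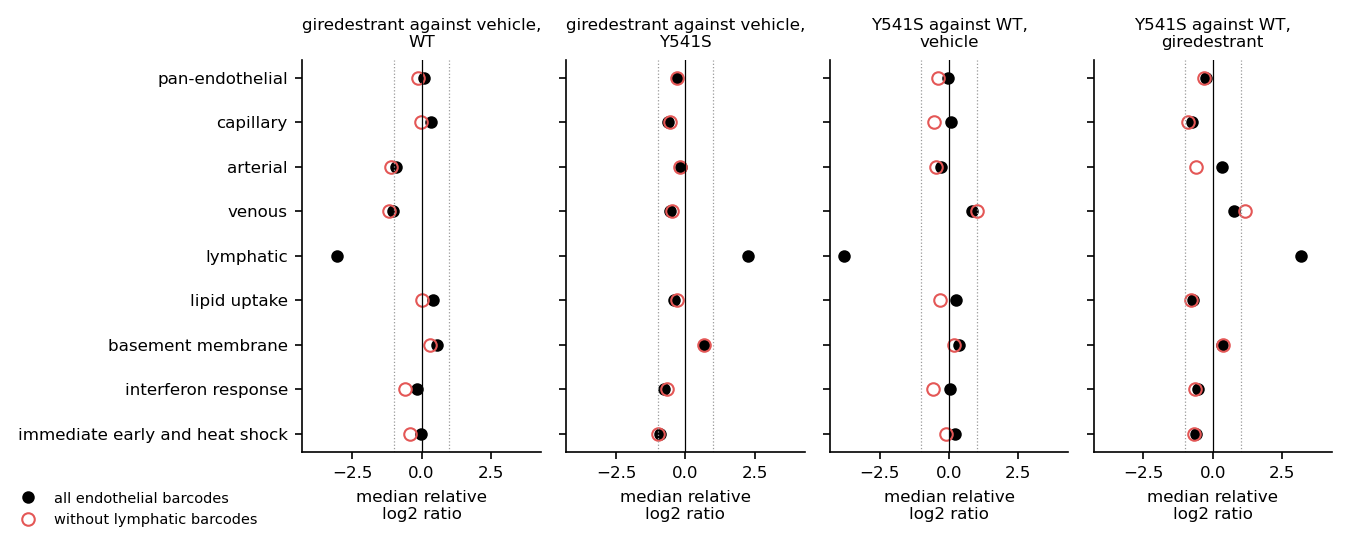
Median relative log2 ratio of 9 gene lists in the 4 comparisons, over all endothelial cells (black) and without the cells that hold 4 or more lymphatic genes (red, open), with dotted lines at a 2-fold difference. The venous median is -1.02 for giredestrant against vehicle in WT and 0.81 for Y541S against WT in vehicle, and the capillary median is -0.74 for Y541S against WT under giredestrant.

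The venous medians kept their sign without the lymphatic cells, and some others did not. The venous median was -1.19 for giredestrant in WT, -0.46 for giredestrant in Y541S, 1.02 for Y541S in vehicle and 1.16 for Y541S under giredestrant. The capillary medians became -0.03, -0.54, -0.53 and -0.91 in the same order, and those of the immediate early genes -0.41, -0.99, -0.12 and -0.69. With all cells the capillary medians were 0.33, -0.63, 0.08 and -0.74 and the immediate early medians -0.03, -0.92, 0.22 and -0.60. The capillary median thus changed sign for giredestrant in WT and for Y541S in vehicle, and the immediate early median for Y541S in vehicle.

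Dividing cells were few. Mki67, a protein of dividing nuclei, had UMIs in 0, 2, 0 and 4 endothelial cells, and the topoisomerase gene Top2a in 2, 2, 2 and 6. After thinning to 1000 UMIs, Mki67 was left in 0, 1, 0 and 0 cells. The summed level of 14 S phase and G2/M genes was 144, 462, 148 and 590 CPM. Top2a was called higher with giredestrant in both genotypes and Mki67 in Y541S. These sums rest on few cells, with 4 or more of the 14 genes in 1, 2, 2 and 4 cells. Antigen-presentation genes of class I were broad: B2m stood at 1717 CPM in 120 cells, H2-K1 at 1538 in 118 and H2-D1 at 1535 in 114. Class II was nearly absent, with 8 UMIs of H2-Aa and 21 of Cd74. Caveolar genes were also broad, with Cav1 at 785 and Cavin2 at 709.5 CPM and UMIs in 101 and 100 cells.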

How the data were processed

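The deposited matrices hold UMI counts per gene and barcode, which the authors made with Cell Ranger 6.0.1, per the file headers, on GRCm38, per the submitters' processing notes. Barcode and feature names came from the deposited text files. Introns may or may not have been counted: this is not given in the sources used here. All 52636 genes were read. Barcodes were kept and chosen as described above, and summed per library. Exact Poisson and Clopper-Pearson 95% intervals and conditional binomial intervals for ratios were computed with SciPy 1.17.1, NumPy 2.4.6 and pandas 2.3.3, and tested on simulated data. A count of 0 was bounded at 3 counts per library. Doublets were not removed from the main values. Scrublet scores (Scanpy 1.11.5) were used in an alternative, and TMM scaling (edgeR 4.0.16) in another.

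Genes were named by these rules: the 5 marker genes, up to 6 members of each list with the highest level and those at 0, the 20 leading genes, junction genes, and the 8 genes furthest from the median gene on each side with 30 or more UMIs, 5 or more cells of the higher library and an interval off the median gene. Other genes were chosen after their values were seen. The endothelial cells and the gene lists were chosen with earlier results of these data known. The cell subsets by lymphatic genes, Selp and mural markers were set after the values were seen. Figures were drawn with Matplotlib 3.10.9.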

Additional observations from a re-analysis of the deposited data

Results flagged for a closer look

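For 7 genes the ratio of giredestrant to vehicle was called in opposite directions in WT and in Y541S. The difference between the genotypes was not tested, since each group is 1 library. Values are log2 relative to the median gene. Those of Ccl21a in both genotypes and of Lyve1 in WT are limits, computed with 3 counts in place of 0, so the ratio was at least that far from the median gene. Of the lymphatic genes, Ccl21a stood at -3.988 in WT and 4.86 in Y541S, Lyve1 at -6.235 and 2.263, Mmrn1 at -2.081 and 1.737, and Prox1 at -1.903 and 1.83. These 4 genes rest on 12 and 1 lymphatic cells in WT and on 1 and 3 in Y541S. Egr1 stood at 1.31 in WT and -1.927 in Y541S. The long noncoding RNA gene Pvt1 stood at -1.543 and 3.222, and the mitochondrial gene mt-Atp8 at -1.355 and 3.316.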

How the results depend on the processing

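No paired analysis was possible because each group is 1 library. Leaving out a replicate was likewise not possible. Of the relative log2 ratios of single genes recomputed under the alternatives, 2298 kept their direction and side of the 2-fold line, 161 fell short of it and 19 reversed. The alternatives that leave out cells with lymphatic, mural or red cell markers were chosen after seeing the data. Removing the highest doublet scores left 4 endothelial cells with Y541S vehicle, under the minimum of 10, so its comparisons gave no value there. The share was then 0.0554% with Y541S vehicle and 0.209% with Y541S giredestrant. Cell counts moved for lists: 57 cells held 3 or more arterial genes, and after thinning 40 held 2 or more arterial, 38 venous and 46 sprouting genes.

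With a minimum of 50 UMIs fewer genes are tested and fewer are called. Giredestrant in WT then had 341 calls (104 higher, 237 lower), giredestrant in Y541S 196 (94 higher, 102 lower), Y541S in vehicle 290 (106 higher, 184 lower) and Y541S under giredestrant 245 (135 higher, 110 lower). Without the lymphatic cells giredestrant in WT had 573 calls, 309 of them lower, and Y541S in vehicle had 492, 212 of them lower. With each cell weighted alike, 562 genes were higher with giredestrant in WT.

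The reversed values follow, and the cause was not tested. With giredestrant in WT, Sele stood at 0.015 with cells weighted alike, and Nr2f2 at 0.30 and Flt4 at 0.43 without the lymphatic cells. For Y541S against WT in vehicle without cells holding mural markers, Il6 stood at -0.12, Cxcl10 at -0.54, Ackr1 at -2.54, Zbtb16 at -0.32 and Rgs5 at -1.97. Without cells holding fibroblast, myeloid or lymphocyte markers, Cxcl10 stood at -0.35 and Ackr1 at -2.76. With cells weighted alike, Ackr1 stood at -0.034 and Pdpn at 0.42. Vcam1 stood at 0.32 without the lymphatic cells and Zbtb16 at -0.057 without the deepest cell of each library. With a marker sum of 10 or more, Hba-a1 stood at 6.42, Hba-a2 at 5.59 and Hbb-bs at 7.41. For Y541S against WT under giredestrant, Tal1 stood at 0.14 with cells weighted alike and Col15a1 at -0.48 without the highest doublet scores.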
